A study of Mus musculus with 16 samples.

Results

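The response of enhancer-mutant LSK cells to 5-fluorouracil (5-FU) was measured by RNA sequencing in 8 of the 16 libraries of a mouse bone marrow study: 3 libraries from Gata2 +9.5(Ets)-/- mice given 5-FU and 5 from Gata2 +9.5(Ets)-/- mice given PBS. The samples were chosen by their labelled genotype and treatment, and all genes were compared. Both groups carried the same homozygous C-to-T change in the Ets motif of the Gata2 +9.5 enhancer, so the mutation is shared by the treated animals and their controls. All mice had the C57BL/6J background and an age of 8 to 14 weeks. They received PBS or 5-FU at 250 mg/kg, and marrow was taken 10 days later. Between 3000 and 10000 cells without B220, CD3, CD4, CD5 or CD8 and with Sca1 and c-Kit on their surface were sorted per replicate. The other 8 libraries, 5 from wild-type mice with PBS and 3 from wild-type mice with 5-FU, entered the fit and 1 comparison of responses. The labels do not say whether replicates were separate mice, so p-values measure the spread between these samples.

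LSK cells are the small fraction of marrow that contains hematopoietic stem cells and the multipotent progenitors derived from them. 5-FU is converted to nucleotides that block thymidylate synthase and enter RNA, which kills dividing cells, and the marrow is then rebuilt from stem cells that were at rest. The Gata2 +9.5 element is an enhancer within an intron of Gata2, whose product is a transcription factor that stem cells require. Among the genes followed here, Slamf1 (CD150) and Esam mark stem cells, Flt3 and Dntt mark multipotent progenitors that lean to the lymphoid lineages, and granule proteins such as lactoferrin mark maturing neutrophils.

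Total expected counts ran from 20092648 to 28883330 per mutant library. Kit and Ly6a, which encode the c-Kit and Sca1 antigens of the gate, were read in all 8 libraries (95.6 to 332 and 157 to 3510 CPM, counts scaled to library size), while of the excluded antigens' genes Cd3e and Cd8a did not exceed 0.112 and 0.17 CPM, and Cd4 and Cd5 reached 2.2 and 2.5 CPM, in PBS replicates 1 and 2. Immunoglobulin genes took 28.94, 34.37, 50.17, 12.18 and 3.668% of the counts in PBS replicates 1 to 5 and 26.57, 16.9 and 5.689% in 5-FU replicates 1 to 3. The group means were 25.87 ± 18.39% (SD, n = 5) and 16.39 ± 10.45% (n = 3), and the exact permutation test (two-sided) gave p = 0.464. The first principal component of the 8 libraries (41.19% of the variance) placed all of them in the order of their immunoglobulin share. It ran from −105.1 in PBS replicate 3, which has the highest share and lay apart from the others, to 44.15 in PBS replicate 5. The second component (20.66%) separated all 5-FU libraries from all PBS libraries. Whether the share has a part in the first component was not tested. Sample codes in the labels begin with 0507 in PBS replicates 1 and 2 and in all 3 5-FU libraries, and otherwise in PBS replicates 3, 4 and 5; what the codes mean is not given in the sources used here.

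After 5-FU, 9 of 16 neutrophil granule genes and 9 of 20 lymphoid-primed progenitor genes fell in the sorted LSK samples of the mutant. Of 30 stem cell genes 6 rose, among them Slamf1 and Esam. Of 16482 genes tested, 138 rose (0.837%) and 224 fell (1.36%), 2.2% in all, at an adjusted p under 0.05 in edgeR's quasi-likelihood test. By fitted value the falls were the deeper changes: 91 of the 224 falls and 32 of the 138 rises were at least 8-fold. The median fitted log2 fold change was −2.43 among the falls and 1.82 among the rises, beside −0.03 over all genes tested. Fitted values of genes at or near 0 in 1 group are not bounds on their depth. Rag1 and Siglech, fitted at −8.13 and −7.42 with 0 counts after 5-FU, were at least 13.5-fold and 8.31-fold lower than their PBS means. In whole sorted samples, fewer cells of a type, less RNA per cell and less RNA from cells outside the gate cannot be told apart. The share of rises among the called genes, 38.1%, was 70.2% by limma-trend on TPM (113 rises, 48 falls). TPM scale each gene by its length and each library to its own total. That fit also added 1 to each TPM before the log2 and used no TMM scaling, unlike the main fit. Which of these differences moved the share was not tested.

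**Figure D1:**
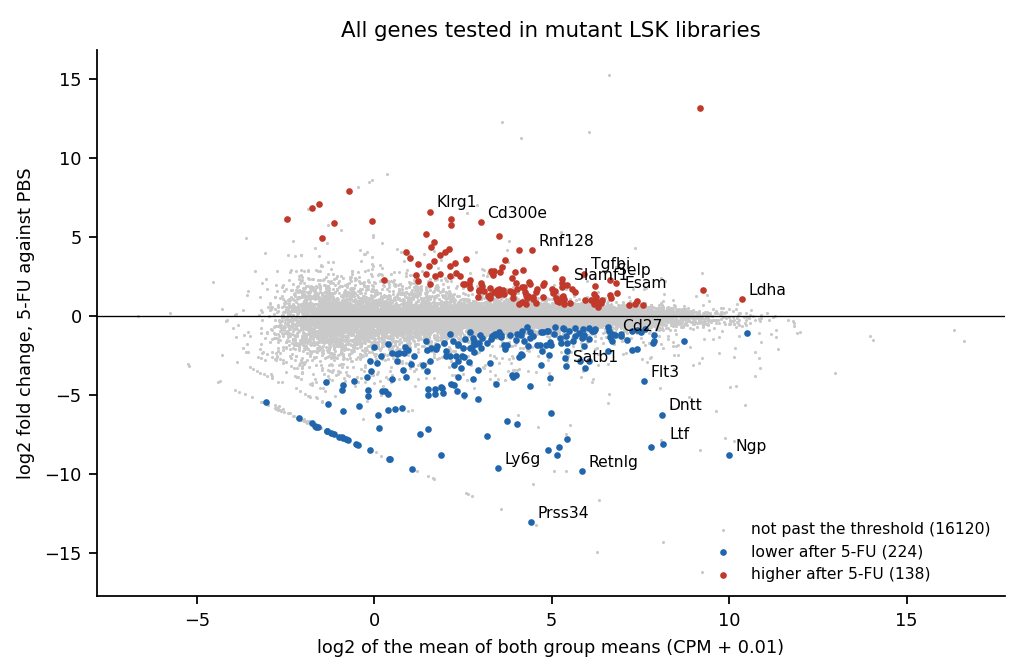
Each point is 1 of 16482 genes; the horizontal axis is the log2 of the mean of both group means (CPM + 0.01), the vertical axis the fitted log2 fold change of 5-FU against PBS in the mutant. The 138 rises (red) and 224 falls (blue) passed the threshold; the oblique line of points at the lower left holds genes with 0 counts in all 5-FU libraries, whose fitted values are not bounds.

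The number of calls depended on single libraries. It was lowest without 5-FU replicate 3 (53 rises, 103 falls) and without 5-FU replicate 2 (68 and 111), and rises numbered 79, 84 and 90 without PBS replicates 1, 2 and 4. Without PBS replicate 3, the library that lay apart, 135 genes rose and 270 fell. Within the code prefix 0507, which leaves 3 libraries against 2, 56 genes rose and 147 fell. Among them were 42 of the 138 rises and 139 of the 224 falls above. All 362 kept their direction, but the prefix libraries are part of those that gave the calls. For 132 of the rises and 216 of the falls the groups did not overlap, so their direction could hardly change when PBS libraries were left out. Of the genes described below, Klrg1, S1pr5, Cd300e, Ace, Ripor3, Treml4, Bcl2a1a, Nmur1, Etv4, Fcgr4, Il2ra, Wfdc21, Fhl1, Tek, Runx2, Siglech, Rhd, Hdc, Btg2, Oas1a, Ldha and Bcl2l1 did not pass within the prefix. With the 8 mutant libraries fitted alone, 80 genes rose and 130 fell, and Prss34, Ngp, Chil3, Ltf, Wfdc21, Epor, Gata1, Vwf, Tek, Fhl1, Ctnnal1, Cd34, Lsp1, Cd37, H2-DMb2, Ccr7, Ace, Bcl2a1a, Fcgr4, Etv4, Rhd, Btg2, Oas1a, Ldha and Bcl2l1 did not pass. For each gene below, the calls that ended when 1 of the 8 libraries was left out are given with their adjusted p, and the other calls of single genes in this comparison held in all 8 such fits.

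**Figure D2:**
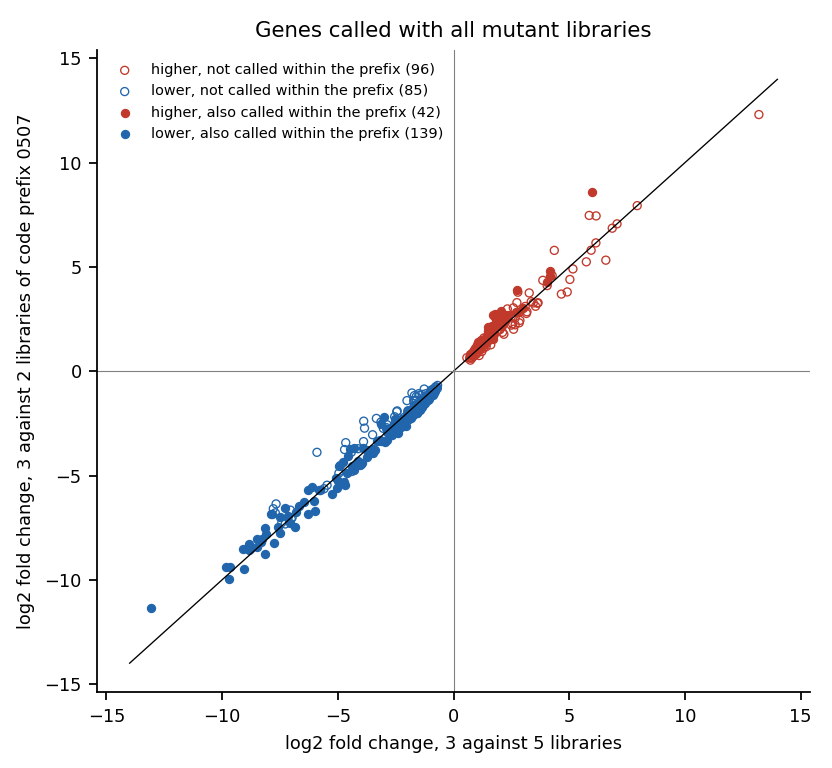
Log2 fold changes of the 362 genes called with all mutant libraries (horizontal axis) against those from the 3 5-FU and 2 PBS libraries of code prefix 0507 (vertical axis), with the line of equality. All points keep their sign, which the shared libraries make likely, and filled points (42 rises, 139 falls) also passed the threshold within the prefix.

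Some genes of hematopoietic stem cells rose. Of 30 listed, all tested, 6 rose, 1 fell and 23 did not pass, and the list's summed level overlapped (2714 to 3309 CPM after PBS, 2635 to 3365 CPM after 5-FU). The median log2 fold change was 0.44, but 0.24 without 5-FU replicate 1 and 0.75 within the code prefix. Rises numbered 3 without PBS replicates 1 or 2 or 5-FU replicate 2, and 2 with the mutant libraries fitted alone. Slamf1, the gene of the CD150 receptor by which stem cells are sorted (GRCm38 chromosome 1, 171767127-171801184, plus strand), had 19.0, 12.1, 19.6, 15.3 and 21.3 CPM in PBS replicates 1 to 5 and 74.1, 71.2 and 61.4 CPM in 5-FU replicates 1 to 3. The groups did not overlap, and the lowest 5-FU library was above the highest PBS library by more than the whole PBS range. The log2 fold change was 1.98 ± 0.22 (SE; adjusted p = 0.000154) and 2.15 within the code prefix. Esam, a junction protein shared by endothelium and stem cells, had 59.1, 54.3, 79.4, 55.7 and 57.7 CPM after PBS and 179, 175 and 156 CPM after 5-FU. It rose by 1.47 ± 0.16 (adjusted p = 0.000117; 1.59 within the prefix).

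The other 4 stem cell genes that rose were Ctnnal1 (2.09 ± 0.45, adjusted p = 0.0194), Fhl1 (1.73 ± 0.37, 0.0183), Vwf (1.71 ± 0.41, 0.0361) and Tek (1.52 ± 0.34, 0.0233). Vwf encodes von Willebrand factor and Tek the angiopoietin receptor Tie2. These 4 calls were less steady than those of Slamf1 and Esam. That of Ctnnal1 ended without PBS replicates 1 (0.0561) or 2 (0.0518) or 5-FU replicates 2 (0.0893) or 3 (0.0574), and that of Fhl1 without PBS replicate 2 (0.0519) or 5-FU replicate 1 (0.09). Vwf did not pass without PBS replicates 1 (0.0906), 2 (0.0566) or 3 (0.0731) or 5-FU replicates 2 (0.229) or 3 (0.12). Tek did not pass without PBS replicate 1 (0.0539) or 5-FU replicates 1 (0.0509) or 2 (0.153). Cd34, an antigen that long-term stem cells of adult mice largely lack, was the member that fell (−1.57 ± 0.35, adjusted p = 0.0269). It had 865, 795, 268, 591 and 650 CPM after PBS and 137, 231 and 275 CPM after 5-FU, so PBS replicate 3 and 5-FU replicate 3 overlapped. The adjusted p of Cd34 was 0.0657 and 0.0632 without PBS replicates 1 and 2 and 0.116, 0.113 and 0.0672 without 5-FU replicates 1, 2 and 3. Procr, the stem cell receptor EPCR, stood at 42.1 to 60.8 CPM after PBS and at 145, 55.6 and 56 CPM after 5-FU (0.86 ± 0.28, adjusted p = 0.157), high in 1 library alone. Hlf (−0.84 ± 0.28, adjusted p = 0.167) and Mecom (0.62 ± 0.43, 0.62), stem cell genes as well, did not pass.

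Selp, the gene of P-selectin, with which platelets and endothelium hold leukocytes (chromosome 1, 164115264-164150026, plus strand), had 34.5, 24.9, 24.2, 42.3 and 46.3 CPM after PBS and 165, 182 and 155 CPM after 5-FU. It rose by 2.28 ± 0.24 (adjusted p = 0.000117; 2.50 within the prefix). Selp and Vwf were the 2 of 20 tested megakaryocyte and platelet genes that passed, both upward; the list's median was 0.60 (0.41 to 0.89 without 1 library), and 1 gene rose in 5 of the 8 such fits. The platelet genes Itga2b (0.72 ± 0.43, adjusted p = 0.541) and Pf4 (0.38 ± 0.61, 0.865) overlapped between the groups. Tgfbi, a matrix protein induced by TGF-beta, had the smallest p of all rises. It stood at 16.0, 13.3, 14.1, 19.4 and 19.1 CPM after PBS and at 97.5, 97.9 and 120 CPM after 5-FU (2.68 ± 0.23, adjusted p = 1.99e-05). Gch1, the first enzyme of tetrahydrobiopterin synthesis, had 32.1 to 45.5 CPM after PBS and 101, 106 and 111 CPM after 5-FU (1.4 ± 0.15, adjusted p = 0.000117). For these 3 genes the spread within each group was small beside the gap between the groups.

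**Figure D3:**
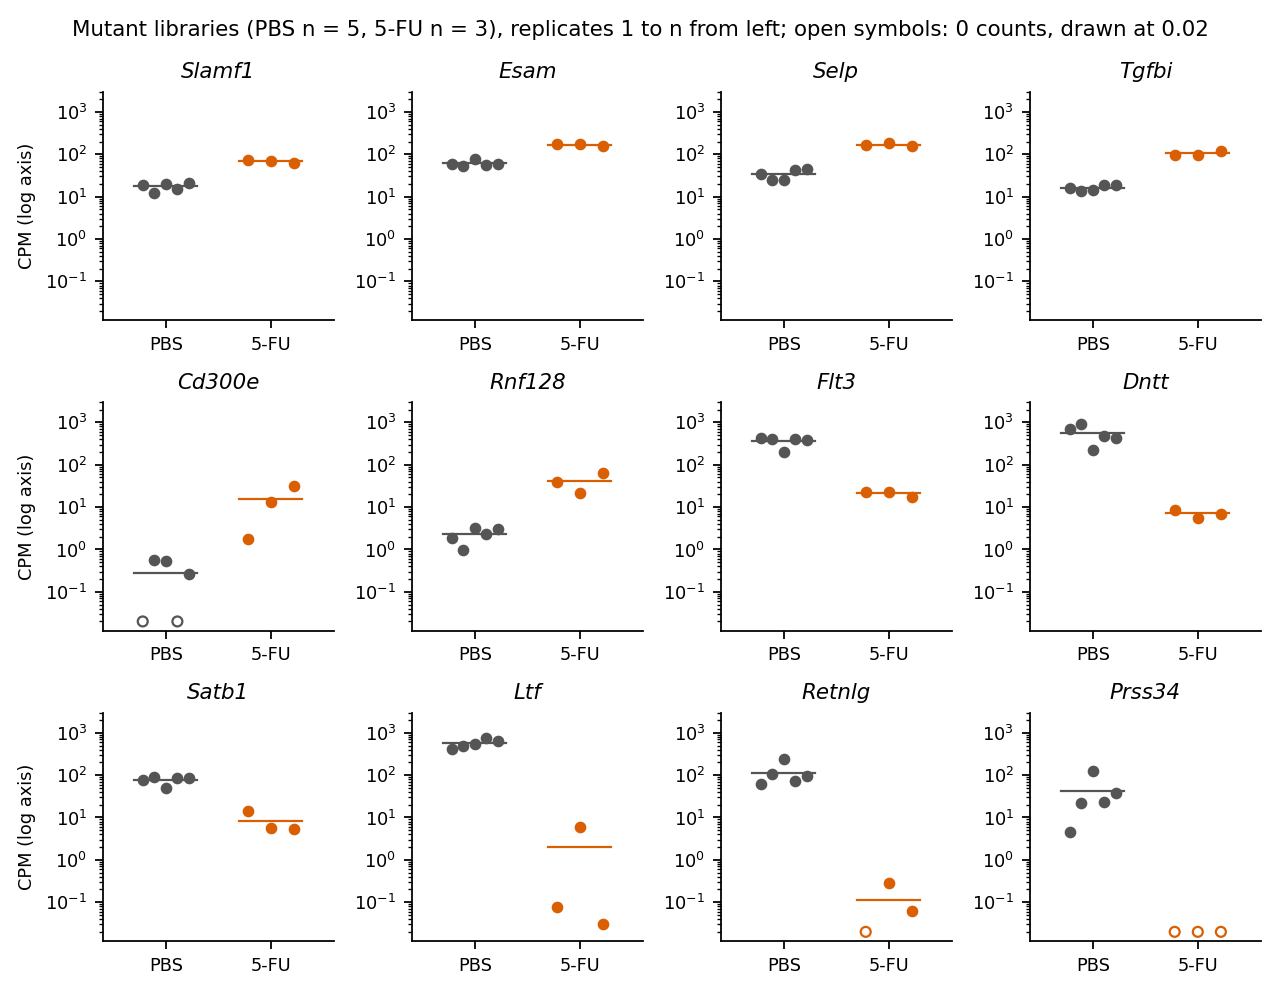
Levels of 12 genes in each mutant library, in CPM on a log axis; points are libraries in replicate order, lines are group means, and open symbols stand for 0 counts. Slamf1, Esam, Selp and Tgfbi lie above the PBS libraries in all 3 5-FU libraries, Flt3, Dntt, Satb1, Ltf, Retnlg and Prss34 lie below, and Cd300e spreads from 1.73 to 31.7 CPM among the 5-FU libraries.

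Several lymphoid-primed progenitor genes fell. Of 20 genes of multipotent and lymphoid-primed progenitors, all tested, 0 rose and 9 fell, among them Flt3, Dntt, Satb1, Rag1, Rag2, Cd27, Il12a and Lsp1; the median was −0.99. Flt3, the receptor tyrosine kinase for FLT3 ligand (chromosome 5, 147330741-147400489, minus strand), had 434, 406, 204, 408 and 377 CPM after PBS and 22.3, 22.7 and 17.8 CPM after 5-FU. The lowest PBS library, replicate 3, was still far above every 5-FU library. Flt3 fell by 4.13 ± 0.30 on the log2 scale (adjusted p = 1.93e-06), and the value within the code prefix was −4.32. Dntt, the polymerase that adds nucleotides at the joints of antigen-receptor genes (chromosome 19, 41029275-41059525, plus strand), had 708, 904, 217, 475 and 435 CPM after PBS and 8.73, 5.58 and 6.96 CPM after 5-FU. It fell by 6.27 ± 0.63 (adjusted p = 8.66e-05). Satb1, a chromatin organizer of lymphoid cells, fell by 3.19 ± 0.35 (adjusted p = 0.000145), from 49.3 to 88.9 CPM after PBS to 14.2, 5.55 and 5.47 CPM after 5-FU.

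The recombinase genes Rag1 and Rag2 stood low in both groups. Rag1 had 2.29, 1.98, 0.528, 0.36 and 1.72 CPM after PBS and 0 counts in the 3 5-FU libraries. It was at least 13.5-fold lower than the PBS mean (floor of 3 counts per library, adjusted p = 0.00533). Rag2 fell by 5.25 ± 0.84 (adjusted p = 0.00303), with 4.84 to 23.2 CPM after PBS and at most 0.708 CPM after 5-FU. Cd27, a receptor of the TNF family on progenitors and lymphocytes, fell by 1.23 ± 0.19 (adjusted p = 0.00295), and the cytokine subunit gene Il12a by 1.45 ± 0.25 (0.00437). Lsp1, an actin-binding protein of leukocytes, fell by 0.82 ± 0.16 (adjusted p = 0.012), a call that ended without 5-FU replicates 2 (0.0783) or 3 (0.0791). Lsp1 had 228 to 285 CPM after PBS and 144, 143 and 143 CPM after 5-FU, so its groups did not overlap. The lymphoid cytokine receptor gene Il7r (0.35, adjusted p = 0.862) did not pass, nor did the progenitor genes Notch1 (−1.73, 0.063) and Sox4 (−1.09, 0.078).

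Other lymphoid and antigen-presentation genes that fell lay outside that list. Lck, a kinase of T-cell receptor signalling, had 29.0 to 66.3 CPM after PBS and 16.1, 12.9 and 11.9 CPM after 5-FU (−1.88 ± 0.30, adjusted p = 0.00335); it was the only one of 22 tested T and NK cell genes that passed. The T and NK list's median was −0.26, but 0.22 without PBS replicate 4 and 0.14 within the prefix, and 0.16 with members at 0 in a group set to their bound. H2-Ob, a regulator of peptide loading on MHC class II, fell by 2.66 ± 0.32 (adjusted p = 0.000299), with 51.7 to 98.6 CPM after PBS and 14.8, 10.2 and 9.39 CPM after 5-FU. It was 1 of 2 of the 11 MHC class II genes that fell, beside 0 that rose (median −1.57). The number that fell was 1 to 3 without 1 library, 7 by DESeq2, 8 with the code covariate and 10 with a replicate block, and the median was −0.92 with the immunoglobulin share as covariate. The other, H2-DMb2 (−1.57 ± 0.39, adjusted p = 0.0473), passed in 1 of the 8 fits without a library, the one without PBS replicate 4; its adjusted p reached 0.214 without 5-FU replicate 2, 0.19 without replicate 3, 0.105 without replicate 1, and 0.103, 0.109, 0.0507 and 0.0688 without PBS replicates 1, 2, 3 and 5. H2-Aa (−2.35 ± 0.64, adjusted p = 0.0732) and the invariant chain gene Cd74 (−1.68 ± 0.79, 0.38) did not pass. Of 18 B-cell genes, 0 rose and 1 fell, the tetraspanin gene Cd37 (−1.13 ± 0.21, adjusted p = 0.00779; 0.0658 without 5-FU replicate 2), and the median was −1.37. Of 20 plasma cell genes 0 passed in either direction; the median was −0.50, but 0.24 without PBS replicate 3 and 0.17 with the immunoglobulin share as covariate, and their summed level ran from 2481 to 80160 CPM after PBS and from 3713 to 23450 CPM after 5-FU. Whether the plasma cell RNA has a part in these B-cell and MHC class II values was not tested.

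Ccr7, the chemokine receptor of lymph node homing, had 15.9, 20.5, 2.82, 11.9 and 13.7 CPM after PBS and 0, 1.43 and 0.911 CPM after 5-FU (−4.03 ± 0.89, adjusted p = 0.0227). Its call ended without PBS replicate 2 (0.0508) or 5-FU replicates 2 (0.0534) or 3 (0.114). Cd5, one of the antigens excluded in the sort, had 1.06 to 2.50 CPM after PBS and at most 0.0787 CPM after 5-FU (−5.07 ± 1.02, adjusted p = 0.0135; 0.0681 and 0.0727 without 5-FU replicates 2 and 3). It was the only one of 9 tested genes of sorting antigens that passed. Paqr5, a membrane progestin receptor, had the smallest p of all genes in the comparison. It stood at 34.3, 27.6, 25.2, 32.6 and 29.4 CPM after PBS and at 3.27, 1.74 and 1.79 CPM after 5-FU (−3.72 ± 0.25, adjusted p = 1.51e-06), well apart in every library.

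Neutrophil granule genes had the lowest median of the lists. Of 16 genes of secondary and later neutrophil granules, all tested, 0 rose and 9 fell, and all 16 had a log2 fold change below 0. The median was −8.01, and −10.36 without 5-FU replicate 2. Their summed level was 4766, 7314, 25870, 4334 and 4516 CPM in PBS replicates 1 to 5 and 30.4, 172 and 55.7 CPM in 5-FU replicates 1 to 3. PBS replicate 3 was the highest, and the lowest PBS library exceeded the highest 5-FU library by over an order of magnitude. The 9 genes that fell were Retnlg, Ly6g, Ngp, Cd177, Mmp8, Chil3, Ltf, Wfdc21 and Mmp9, and the 7 others were Camp, Lcn2, S100a8, S100a9, Cxcr2, Fpr1 and Padi4.

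RefSeq promoters (GRCm38.p6) were at hand for 14 of these 16 genes. CCAAT/enhancer-binding proteins (C/EBP) drive granule genes in maturing neutrophils, so the 250 bases upstream of each RefSeq start were searched on both strands for TTGCNNAA, the core of the palindrome these factors bind; the motif was chosen after the fold changes were known. It was found in 7 of the 14 (Ltf, Ngp, Lcn2, S100a9, Mmp8, Retnlg and Ly6g), in 13.2% of 159 promoters of genes that fell, in 5.1% of 98 promoters of genes that rose and in 7.73% of 11172 promoters of all genes tested. A match describes letters only, and TTGCNNAA can overlap a CCAAT box. The Ets core CCGGAA was found in 9.43% of the promoters of falling genes, 8.16% of those of rising genes and 21.7% of all, and the GATA motif AGATAA in 8.18, 4.08 and 6.27%. The AP-1 motif TGACTCA was found in 6.92, 5.1 and 3.01%, the E2F motif TTCCCGC in 4.4, 7.14 and 6.79%, the CHR motif TTTGAA in 15.1, 12.2 and 11%, and CCAAT in 28.3, 32.7 and 36.3%; CCAAT was in 7 and AGATAA in 3 of the 14 neutrophil promoters. The 5 falling granule genes with a match are shown on the plus strand from 250 bases before the RefSeq start, ending before the first base that GENCODE assigns to the gene, with the match in capitals: Ltf at chr9:111019042-111019270, Ngp at chr9:110419558-110419746, Mmp8 at chr9:7558179-7558428, Retnlg at chr16:48872358-48872607 and Ly6g at chr15:75155011-75155239.
Ltf: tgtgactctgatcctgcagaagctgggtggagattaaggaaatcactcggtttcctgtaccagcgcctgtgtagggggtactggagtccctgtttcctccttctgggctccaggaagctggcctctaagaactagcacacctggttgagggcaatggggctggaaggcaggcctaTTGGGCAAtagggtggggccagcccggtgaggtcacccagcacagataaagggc
Ngp: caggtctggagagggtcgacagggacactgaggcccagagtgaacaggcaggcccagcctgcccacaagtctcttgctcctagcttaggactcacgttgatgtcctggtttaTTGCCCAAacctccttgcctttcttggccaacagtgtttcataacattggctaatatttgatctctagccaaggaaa
Mmp8: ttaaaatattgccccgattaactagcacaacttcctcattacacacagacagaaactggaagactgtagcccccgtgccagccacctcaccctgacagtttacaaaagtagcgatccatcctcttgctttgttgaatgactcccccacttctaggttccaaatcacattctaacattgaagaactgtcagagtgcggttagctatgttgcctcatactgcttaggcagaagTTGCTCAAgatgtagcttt
Retnlg: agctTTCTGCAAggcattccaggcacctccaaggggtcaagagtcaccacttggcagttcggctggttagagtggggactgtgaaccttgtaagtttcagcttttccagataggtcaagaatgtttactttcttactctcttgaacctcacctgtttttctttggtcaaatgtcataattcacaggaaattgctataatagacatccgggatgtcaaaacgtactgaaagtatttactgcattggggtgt
Ly6g: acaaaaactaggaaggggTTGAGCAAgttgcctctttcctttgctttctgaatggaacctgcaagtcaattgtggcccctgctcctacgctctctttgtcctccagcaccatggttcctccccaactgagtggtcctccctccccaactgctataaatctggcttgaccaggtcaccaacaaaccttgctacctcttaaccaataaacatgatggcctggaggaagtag
The match began 75 bases before the RefSeq start in Ltf, 138 in Ngp, 19 in Mmp8, 246 in Retnlg and 232 in Ly6g, so no common distance was seen. Ngp held another match 11 bases before its RefSeq start, beyond the stretch shown.

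Of the genes whose promoters are shown, Ltf, which encodes the iron-binding granule protein lactoferrin, had 419, 492, 536, 736 and 624 CPM after PBS and 0.0787, 6.03 and 0.0304 CPM after 5-FU. All PBS libraries were high and even, and 5-FU replicate 2 kept the most. Ltf fell by 8.09 ± 1.46 on the log2 scale (adjusted p = 0.00833; −7.79 within the prefix). The fitted value was −13.25 without 5-FU replicate 2 and −7.51 without 5-FU replicate 3. Retnlg, a resistin-like secreted protein of neutrophils, had 63.0, 106, 240, 71.8 and 92.9 CPM after PBS and 0, 0.285 and 0.0608 CPM after 5-FU (−9.84 ± 0.98, adjusted p = 8.66e-05). Ngp, the neutrophilic granule protein, had 1373, 1995, 4670, 1053 and 1051 CPM after PBS and 0.315, 12.9 and 0.152 CPM after 5-FU (−8.82 ± 1.56, 0.00779). Ly6g, the antigen of mature neutrophils, had 11.5 to 50.4 CPM after PBS and 2 counts in 1 of the 3 5-FU libraries. Its level was 831-fold lower, with a 95% counting interval of 230 to 6870 that covers counting error only (adjusted p = 0.000219). Mmp8, neutrophil collagenase, fell by 8.48 ± 1.53 (adjusted p = 0.00909; 0.0555 without 5-FU replicate 2), with 42.2 to 80.6 CPM after PBS and at most 0.456 CPM after 5-FU. Other granule genes moved likewise when the 5-FU library with most of their counts was left out: Ngp to −13.07, Chil3 to −13.46 and Cd177 to −13.79 without replicate 2, and Mmp8 to −13.52 without replicate 3. Such fitted values of genes near 0 are no bounds.

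Among the other granule genes that fell, Chil3, Cd177 and Wfdc21 were also highest in 5-FU replicate 2, and Mmp9 in replicate 3. Chil3, a chitinase-like protein, had 251 to 955 CPM after PBS and 0.0393, 4.15 and 0.0304 CPM after 5-FU (−8.30 ± 1.56, adjusted p = 0.0117). Cd177, a neutrophil surface protein, had 52.3 to 83.6 CPM after PBS and 0, 0.444 and 0 CPM after 5-FU (−8.82 ± 1.11, 0.000607). The gelatinase gene Mmp9 fell by 6.13 ± 0.94 (adjusted p = 0.00269). Wfdc21 fell by 7.79 ± 1.74 (adjusted p = 0.0348), a call that ended without PBS replicate 2 (0.0529) or any of 5-FU replicates 1 (0.116), 2 (0.0814) or 3 (0.167). Camp (−8.53 ± 2.07, adjusted p = 0.0522), Lcn2 (−7.89 ± 1.93, 0.0541), S100a8 (−7.75 ± 2.07, 0.0802) and S100a9 (−7.93 ± 2.11, 0.0802) had folds of the same size and did not pass. Camp encodes the antimicrobial peptide cathelicidin, and S100a8 and S100a9 form calprotectin. Their PBS levels were uneven, at 533 to 6312 CPM for S100a8, the highest in PBS replicate 3. Cxcr2 (−1.56, adjusted p = 0.299), Fpr1 (−0.50, 0.859) and Padi4 (−0.71, 0.585) had smaller values.

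A further 3 neutrophil-type genes, outside the list, were among the 12 largest falls picked by the naming rule. Fcnb, a ficolin of immature granulocytes, had 32.3 to 151 CPM after PBS and 0, 0.634 and 0.0304 CPM after 5-FU (−8.30 ± 1.24, adjusted p = 0.00385). Itgb2l, a beta-2-like integrin chain, had 15.3 to 19.4 CPM after PBS and 0, 0.254 and 0 CPM after 5-FU (−7.59 ± 0.92, 0.000608). Orm1, an acute-phase glycoprotein, had 3 counts in the 5-FU libraries in all and was 129-fold lower, with a counting interval of 43.9 to 627 (adjusted p = 0.00656).

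Of 19 tested genes of granulocyte-monocyte progenitors, 0 rose and 3 fell (Clec12a, Cst7 and Cebpe); the median was −1.41. Cebpe, the C/EBP factor of late granulocyte maturation, had 4.62, 6.24, 15.5, 7.72 and 2.58 CPM after PBS and 0.0787, 0.412 and 0.213 CPM after 5-FU. It fell by 4.91 ± 0.96 (adjusted p = 0.0114), and the call ended without 5-FU replicates 1 (0.0509) or 3 (0.0747). Clec12a, an inhibitory lectin of myeloid cells, had 86.3 to 134 CPM after PBS and 3.74, 9.77 and 20.1 CPM after 5-FU (−3.31 ± 0.60, adjusted p = 0.00708). Cst7, the protease inhibitor cystatin F, fell by 3.14 ± 0.66 (adjusted p = 0.017; 0.0744 and 0.103 without 5-FU replicates 1 and 2). The primary granule genes were lower on average but not past the threshold. Mpo, which encodes myeloperoxidase, had 540, 964, 346, 5281 and 2766 CPM after PBS and 6.26, 172 and 83.1 CPM after 5-FU (−4.51 ± 1.3, adjusted p = 0.104). Elane, neutrophil elastase, had 180 to 1343 CPM after PBS and 1.42, 26.2 and 8.38 CPM after 5-FU (−5.76 ± 1.66, 0.109). The groups did not overlap for either gene, but that held for 833 genes higher and 814 genes lower after 5-FU among the 16482 tested. Cd33, a sialic acid-binding receptor of myeloid progenitors, was even after PBS at 24.3 to 30.7 CPM and had 5.98, 2.41 and 5.71 CPM after 5-FU (−2.62 ± 0.27, adjusted p = 0.000117).

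Of 19 tested mast cell, basophil and eosinophil genes 2 fell, 1 rose and 16 did not pass; the median was −1.62, and −0.71 and −2.98 without 5-FU replicates 2 and 3. Prss34, a basophil protease (chromosome 17, 25298394-25300165, plus strand), had 4.58, 21.4, 126, 22.6 and 38.3 CPM after PBS and 0 counts in all 3 5-FU libraries. It was at least 420-fold lower than the PBS mean of 42.6 CPM, taking 3 counts per library as the floor (adjusted p = 0.00665). PBS replicate 3 raised that mean above the PBS median of 22.6 CPM, and the bound leaves out the PBS spread. Hdc, which makes histamine, fell by 3.85 ± 0.73 (adjusted p = 0.00915), with 10.5 to 60.1 CPM after PBS and 1.06, 0.793 and 3.92 CPM after 5-FU; its adjusted p was 0.0636 without 5-FU replicate 2 and 0.0843 within the code prefix. These were the 2 falls, and Gata1 was the 1 rise. The basophil protease gene Mcpt8 (−4.08 ± 1.02, adjusted p = 0.0519) did not pass. The eosinophil gene Epx had 40.6 CPM in PBS replicate 3 and 0 counts in all 5-FU libraries and in PBS replicate 5 (adjusted p = 0.059).

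Several of the largest rises were of genes read near 0 after PBS, and these differed widely between the 5-FU libraries. Cd300e, an activating receptor of monocytes, had 0, 0.572, 0.528, 0 and 0.261 CPM after PBS and 1.73, 13.5 and 31.7 CPM after 5-FU (5.95 ± 1.3, adjusted p = 0.0216). Treml4, a receptor of non-classical monocytes and some dendritic cells, had at most 1.53 CPM after PBS and 2.44, 13.9 and 50.8 CPM after 5-FU (5.03 ± 1.00, 0.012). Ace, angiotensin-converting enzyme, had at most 0.468 CPM after PBS and 0.865, 8.94 and 16.4 CPM after 5-FU (5.74 ± 1.36, 0.0355). In all 3 genes 5-FU replicate 1 was lowest and replicate 3 highest. The call of Treml4 ended without 5-FU replicate 3 (3.59, adjusted p = 0.136). Cd300e did not pass without 5-FU replicates 2 (0.0599) or 3 (0.171) or PBS replicates 1 (0.0536) or 5 (0.0528). Ace did not pass without 5-FU replicates 2 (0.0972) or 3 (0.198) or PBS replicates 1 (0.0848), 4 (0.0736) or 5 (0.0826).

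Cd300e and Treml4 were the 2 rises among 22 monocyte and macrophage genes, beside 0 falls, and 0 genes rose without 5-FU replicate 3. The list's median was −0.50, but 0.04 without PBS replicate 3 and 0.71 within the code prefix. The summed level of the list was 3753, 4079, 14900, 1888 and 1530 CPM after PBS and 1564, 1201 and 1466 CPM after 5-FU. Fcgr4, an Fc receptor of non-classical monocytes that was added to the text after its values were seen, had 1.19 to 4.93 CPM after PBS and 3.90, 12.6 and 48.2 CPM after 5-FU (3.10 ± 0.77, adjusted p = 0.0444). It passed in 2 of the 8 fits without a library, and it was 1.71 (adjusted p = 0.495) without 5-FU replicate 3; the adjusted p was 0.0749 without replicate 2 and 0.112, 0.0756, 0.102 and 0.0979 without PBS replicates 1, 2, 4 and 5. Csf1r, the receptor of macrophage colony-stimulating factor, had 8.95 to 23.2 CPM after PBS and 7.0, 54.6 and 93.8 CPM after 5-FU (1.65 ± 0.63, adjusted p = 0.251). The macrophage gene C1qa, at 1.92 to 15.3 CPM after PBS and 2.12 to 4.89 CPM after 5-FU, did not pass (−1.03, 0.706). Whether monocytes in the sort have a part in these rises was not tested.

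Klrg1, an inhibitory receptor of NK and T cells, had at most 0.156 CPM after PBS and 4.09, 1.81 and 11.6 CPM after 5-FU. It had the largest rise among the genes named here by size (6.58 ± 1.18, adjusted p = 0.00653; 0.0661 without 5-FU replicate 3). S1pr5, a sphingosine-1-phosphate receptor of NK cells and monocytes, had at most 0.336 CPM after PBS and 0.629, 7.52 and 18.2 CPM after 5-FU (6.16 ± 1.15, adjusted p = 0.00797; 0.0737 without 5-FU replicate 3). Il2ra, the CD25 receptor chain, added after its values were seen, had 0.262 to 1.61 CPM after PBS and 13.9, 5.99 and 13.3 CPM after 5-FU (3.63 ± 0.74, 0.0137; 0.0688 without 5-FU replicate 3). The NK cell genes Ncr1 (2.73 ± 1.08, adjusted p = 0.27) and Klrb1c (1.31 ± 0.54, 0.297) did not pass, and Cd3e was at 0 in the 5-FU libraries. The summed T and NK list stood at 85.9 to 124 CPM after PBS and at 93.5, 44.6 and 81.0 CPM after 5-FU, which overlap.

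Col18a1, Rnf128, Ripor3 and Pde10a rose in every 5-FU library. Col18a1, the chain of collagen XVIII (chromosome 10, 77052178-77166548, minus strand), had 1.78, 0.936, 0.44, 3.44 and 2.02 CPM after PBS and 17.5, 40.3 and 38.9 CPM after 5-FU (4.18 ± 0.54, adjusted p = 0.000607). Rnf128, a ubiquitin ligase also called GRAIL, had 0.988 to 3.26 CPM after PBS and 40.0, 21.1 and 62.7 CPM after 5-FU (4.16 ± 0.47, 0.000176). Ripor3 had at most 0.336 CPM after PBS and 4.49, 7.01 and 4.37 CPM after 5-FU (5.16 ± 0.86, 0.00383). Pde10a, a phosphodiesterase of cyclic nucleotides, had at most 0.622 CPM after PBS and 4.01, 7.87 and 10.5 CPM after 5-FU (4.05 ± 0.60, 0.00191). Etv4, an Ets-family transcription factor, had at most 1.24 CPM after PBS and 2.20, 8.85 and 9.26 CPM after 5-FU (3.86 ± 0.78, adjusted p = 0.0135; 0.0645 and 0.0698 without 5-FU replicates 2 and 3). Nmur1, a neuromedin receptor (4.27 ± 0.91, adjusted p = 0.0191), did not pass without PBS replicates 1 (0.0581), 2 (0.0543) or 4 (0.0524) or 5-FU replicates 1 (0.0731) or 3 (0.0655). Bcl2a1a (4.36 ± 1.01, adjusted p = 0.0313), a BCL2-family gene whose near-identical copies make its counts uncertain, passed in 2 of the 8 fits without a library. It was 2.79 (adjusted p = 0.33) without 5-FU replicate 3, and its adjusted p was 0.0504 without replicate 2 and 0.0571, 0.0832, 0.077 and 0.0708 without PBS replicates 1, 2, 4 and 5.

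Erythroid genes divided. Of 23 listed, all tested, 2 rose and 1 fell (median −0.64, but 0.48 within the code prefix). Epor, the erythropoietin receptor, had 3.56, 5.88, 8.19, 10.2 and 12.3 CPM after PBS and 21.7, 28.1 and 34.5 CPM after 5-FU, without overlap (1.81 ± 0.31, adjusted p = 0.00437). Gata1, the erythroid and megakaryocytic relative of Gata2, had 9.79 to 25.8 CPM after PBS and 31.5, 48.7 and 72.3 CPM after 5-FU (1.59 ± 0.37, adjusted p = 0.0312). The Gata1 call ended without PBS replicates 1 (0.075), 2 (0.0821) or 3 (0.0662) or 5-FU replicates 2 (0.0943) or 3 (0.233). Rhd, a red cell membrane protein, fell (−3.88 ± 0.93, adjusted p = 0.0372), from 2.80 to 17.0 CPM after PBS to 1.73, 0.0634 and 0.213 CPM after 5-FU. It did not pass without PBS replicates 4 (0.0713) or 5 (0.0631) or 5-FU replicates 2 (0.141) or 3 (0.201), and it was −2.39 (0.336) within the code prefix. The beta-globin gene Hbb-bs had 14.2 to 345 CPM after PBS and 98.0, 18.1 and 23.5 CPM after 5-FU (−1.39, adjusted p = 0.628). Among 22 receptors of cytokines acting on progenitors, Epor was the 1 rise and Flt3 the 1 fall (median 0.01).

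Gata2 itself (chromosome 6, 88193891-88207032, plus strand) had 109, 72.8, 48.4, 164 and 167 CPM after PBS and 169, 208 and 197 CPM after 5-FU. The groups did not overlap, which held for 833 tested genes in this direction, but PBS replicates 4 and 5 came close to the 5-FU libraries. The difference of 0.77 ± 0.34 did not pass (adjusted p = 0.329). Its value within the code prefix was 1.07. Gata2 passed in 3 of 20 alternative fits, among them the replicate block (1.28, adjusted p = 0.0051), and in 0 of the 8 fits without a library. Of 18 transcription factors of the stem cell heptad and their partners 0 rose and 0 fell (median −0.02); the smallest p values belonged to Hoxa9 (−0.60 ± 0.17, adjusted p = 0.0844) and Fli1 (0.52 ± 0.16, 0.106). Kit (−0.44 ± 0.49, adjusted p = 0.794) and Ly6a (−0.97 ± 0.95, 0.761) overlapped between the groups. Ly6a reached 3510 CPM in PBS replicate 3 beside 157 CPM in PBS replicate 5, and it was 729, 615 and 467 CPM after 5-FU.

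Genes of cell division did not pass at this time point. Of 26 G1-S and replication genes 0 rose and 0 fell, though 21 had a log2 fold change above 0 (median 0.23), and of 25 G2-M genes 0 passed and 22 were above 0 (median 0.44). Mki67, the proliferation antigen Ki-67, had 54.5 to 110 CPM after PBS and 49.4, 91.5 and 93.4 CPM after 5-FU (−0.04 ± 0.29, adjusted p = 0.979). Ccnb1, cyclin B1, had 55.7 to 137 CPM after PBS and 106, 232 and 305 CPM after 5-FU (0.92 ± 0.32, 0.192). The summed G2-M level was 1511 CPM in 5-FU replicate 1 and 3131 and 3433 CPM in replicates 2 and 3, beside 1197 to 2423 CPM after PBS. Of 26 enzymes of pyrimidine and 5-FU metabolism 0 passed (median 0.18). Tyms, thymidylate synthase and the main enzyme target of 5-FU, had 105 to 172 CPM after PBS and 98.8, 156 and 180 CPM after 5-FU (0.16 ± 0.20, adjusted p = 0.821). No member passed among 26 DNA repair genes (median 0.23) or 22 ribosome biogenesis genes (0.27). Without PBS replicate 3 the medians of the G1-S, G2-M, pyrimidine, repair and ribosome lists were 0.05, 0.28, 0.07, 0.03 and 0.07. Of 25 p53 targets 0 rose and 1 fell, the antiproliferative gene Btg2; Cdkn1a, which encodes the inhibitor p21, had −0.58 ± 0.35 (adjusted p = 0.55).

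Btg2, also an immediate early gene, had 473, 179, 134, 256 and 325 CPM after PBS and 121, 33.0 and 36.6 CPM after 5-FU (−2.10 ± 0.52, adjusted p = 0.0461). It passed in 2 of the 8 fits without a library; its adjusted p was 0.241 and 0.245 without 5-FU replicates 2 and 3 and 0.1, 0.0571, 0.0713 and 0.0781 without PBS replicates 1, 2, 4 and 5. Of the 22 immediate early genes 0 rose and 1 fell, and all 22 had a log2 fold change below 0 (median −1.81); 5 fell without 5-FU replicate 1 and 7 by DESeq2. Fos had 2095, 800, 205, 1050 and 1068 CPM after PBS and 445, 19.6 and 27.7 CPM after 5-FU (−2.67 ± 1.10, adjusted p = 0.308), and Egr1 44.7 to 638 CPM after PBS and 70.3, 38.0 and 36.0 CPM after 5-FU (−2.93 ± 0.91, 0.131). PBS replicate 3 and 5-FU replicate 1 therefore crossed for both genes.

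Single members of other lists passed. Tgfbr3, the co-receptor betaglycan, was the 1 rise among 22 TGF-beta and BMP genes (2.08 ± 0.36, adjusted p = 0.00481), with 15.9, 7.23, 15.9, 17.5 and 17.7 CPM after PBS and 36.6, 82.0 and 69.9 CPM after 5-FU. Ldha, lactate dehydrogenase A, was the 1 rise among 19 glycolysis and hypoxia genes (1.05 ± 0.24, adjusted p = 0.0275; 0.0657 without PBS replicate 1, 0.116 and 0.187 without 5-FU replicates 2 and 3). Oas1a, an interferon-induced enzyme, was the 1 rise among 24 interferon-stimulated genes (0.85 ± 0.20, adjusted p = 0.0372), and Bcl2l1, which encodes BCL-XL, the 1 rise in a list of 15 BCL2-family genes that does not hold Bcl2a1a (0.85 ± 0.21, 0.0478). Among the 8 fits without a library, Oas1a passed only in that without PBS replicate 2 (0.0625 to 0.239 in the others) and Bcl2l1 only in that without 5-FU replicate 1 (0.0714 to 0.261); the highest values were those without 5-FU replicate 3. Esam and Tek were the 2 rises among 17 endothelial and stromal genes (median 0.29, but 1.26 without PBS replicate 3 and 0.005 without 5-FU replicate 2), and the stromal marker Pdgfra was at 0 counts in all 8 libraries. Siglech, a receptor of plasmacytoid dendritic cells, had at most 1.31 CPM after PBS and 0 counts after 5-FU, at least 8.31-fold lower than the PBS mean (adjusted p = 0.0353). With Flt3 and Runx2 (−1.17 ± 0.27, 0.0313) it made up the 3 falls among 15 dendritic cell genes, and among the 8 fits without a library Siglech and Runx2 passed only in that without PBS replicate 3 (0.0521 to 0.139 and 0.0502 to 0.164 in the others).

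**Figure D4:**
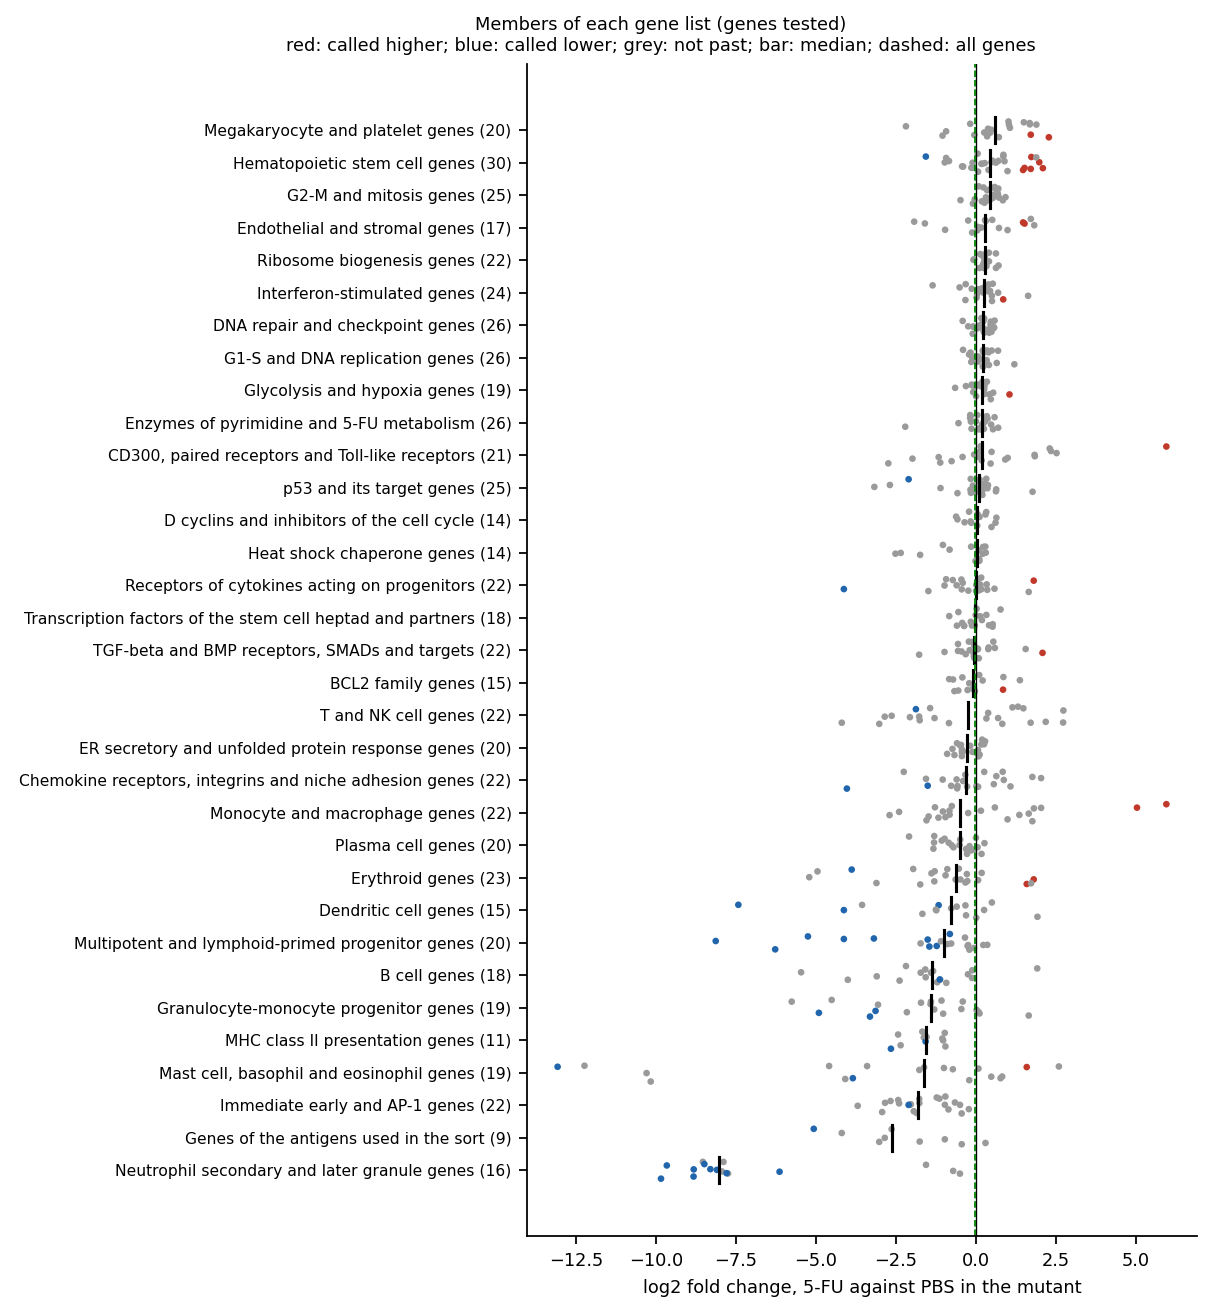
Log2 fold changes of the tested members of 33 gene lists (rows, with the number tested), ordered by the list's median (black bar); red points rose, blue points fell, grey points did not pass, and the dashed line is the median of all genes. Late neutrophil genes have the lowest median (−8.01) and megakaryocyte genes the highest (0.60).

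The response was then set beside that of wild-type LSK cells, for which 5 PBS and 3 5-FU libraries, none shared with the mutant, were compared in the same fit. In wild type 2450 genes passed (14.9%). Of the 138 genes that rose in the mutant, 117 had the same sign in wild type and 81 also rose there; of the 224 falls, 214 had the same sign and 165 also fell. The genes called in the same direction in both were 68.0% of the mutant's calls and 10.0% of those in wild type, and 10 of the mutant's calls passed in wild type in the opposite direction. The test of the difference between the 2 responses called 97 genes (0.589%), 92 with a difference above 0 (mutant minus wild type) and 5 below; 15 of them were among the mutant's calls. Of the 60 called genes named by rule, 6 were among them, 3 in each direction. With the immunoglobulin share as covariate 0 of these 6 passed (adjusted p 0.245 to 0.53), though all kept their sign. The differences were then 10.35 (Treml4), 7.72 (Bcl2a1a), 5.48 (Rnf128), −1.06 (Selp), −2.22 (Flt3) and −4.67 (Dntt). In wild type the share did not overlap between treatments, so this covariate cannot be well separated from the wild-type response. Whether the share has a part in these differences was therefore not tested.

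Flt3 and Dntt had deeper falls in the mutant. In wild type Flt3 had 343 to 507 CPM after PBS and 104, 105 and 162 CPM after 5-FU (−1.78 ± 0.26), and the responses differed by −2.35 ± 0.35 (adjusted p = 0.00798). Dntt fell by 2.77 ± 0.52 in wild type, and the responses differed by −3.50 ± 0.67 (adjusted p = 0.0266). The call for Dntt ended without mutant PBS replicate 1 (0.0527) or mutant 5-FU replicates 1 (0.0502), 2 (0.0789) or 3 (0.0676). Selp rose in both genotypes, by less in the mutant (difference −2.09 ± 0.35, adjusted p = 0.0141). It stood at 7.80 to 16.4 CPM in wild type after PBS, below the mutant's PBS libraries, and at 214, 218 and 278 CPM after 5-FU. Treml4 and Bcl2a1a fell in wild type (−4.01 ± 1.20, adjusted p = 0.0361 and −3.82 ± 1.18, 0.041) and rose in the mutant, with differences of 9.04 ± 1.62 (0.0198) and 8.17 ± 1.59 (0.0266). The Bcl2a1a difference did not pass without mutant PBS replicates 2 (0.0514) or 4 (0.0517) or 5-FU replicate 3 (0.0701). With the mutant libraries limited to the code prefix 0507, the differences for Treml4, Bcl2a1a and Selp did not pass (0.103, 0.0772 and 0.0784). The wild-type libraries all have other prefixes. Rnf128 had −1.34 ± 0.49 in wild type (adjusted p = 0.071) and a difference of 5.50 ± 0.70 (0.00267). The immunoglobulin share, 6.37 to 44.2% in wild type after PBS and 0.0392 to 0.332% after 5-FU, differed between the genotypes after 5-FU, and no code prefix is shared by the genotypes, so prefix and genotype cannot be told apart. For Slamf1 the responses differed by −1.13 ± 0.32 (adjusted p = 0.138), and for Cd300e by 9.94 ± 2.33 (0.069), so neither passed. Gata2 rose in wild type by 1.48 ± 0.33 (adjusted p = 0.0103), and its difference of −0.71 ± 0.48 (0.602) did not pass either.

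**Figure D5:**
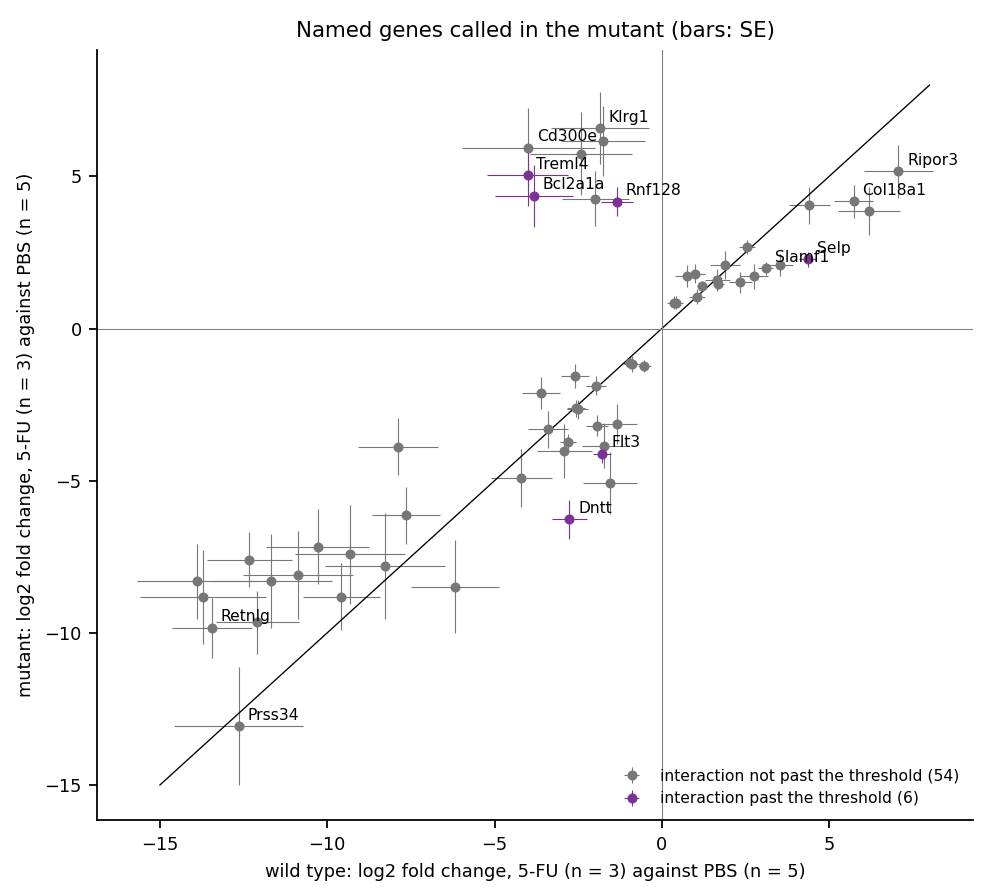
Log2 fold change of 5-FU against PBS in wild type (horizontal axis) and in the mutant (vertical axis) for the 60 named genes called in the mutant, with SE bars and the line of equality; violet marks the 6 genes whose responses differed in the test. Treml4, Bcl2a1a and Rnf128 lie above 0 in the mutant and below 0 in wild type, and the neutrophil genes lie low in both; the fitted values of Prss34 and Siglech, at 0 after 5-FU, are not bounds.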

How the data were processed

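RNA from sorted LSK cells (RNeasy Micro, NuGEN Ovation Ultralow libraries, per the labels' protocols) was sequenced in 16 samples. The authors deposited RSEM expected counts per gene, not normalized, and these were rounded to whole counts. The deposited files also hold TPM, scaled by the authors for length and library total per the file headers. RSEM 1.3.1, FastQC 0.11.2 and the build mm10 come from the submitters' processing notes, that is, per the labels; no source used here gives the aligner or annotation. Of 53342 gene IDs, 53237 (99.8%) matched GENCODE M21 (GRCm38), the source of the coordinates.

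Genes with too few counts were removed (edgeR filterByExpr, minimum count 10), which left 16482. All 16 libraries were fitted with 1 mean per group, TMM scaling and the robust quasi-likelihood test of edgeR 4.0.16 (R 4.3.3), with Benjamini-Hochberg adjustment over all genes and a threshold of 0.05. CPM were computed with the TMM-scaled library sizes. SE was derived from the F statistic and the log2 fold change. A group at 0 was given a floor of 3 counts per library. The bound sets the mean of the other group over that floor and leaves out the spread between its libraries. Counting intervals are exact at 95%. The alternatives used limma 3.58.1, DESeq2 1.42.0, other filters and scalings, covariates and subsets of libraries; exact permutation tests used scipy 1.17.1. No 2 libraries were identical.

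Genes were named by rule: Gata2, Kit and Ly6a; the 12 largest rises and 12 largest falls of at least 2-fold, reaching a group mean of 5 CPM, with no overlap between groups, leaving out predicted, immunoglobulin, Xist and Y-linked genes; the 6 rises and 6 falls of smallest p; and up to 4 called members of each list. Other genes were chosen after their values were seen, as was the C/EBP motif. The members and lists were chosen with earlier results of these data known. Promoter windows were 250 bases upstream, shorter than the 300 planned. One listed gene, Azu1, was not analysed here, and some genes past the threshold are not reported here.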

Additional observations from a re-analysis of the deposited data

Results flagged for a closer look

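For 6 named genes the test of the difference between the mutant and the wild-type response passed, given as the mutant log2 fold change minus that of wild type. The difference was above 0 for Treml4 (9.04 ± 1.62 SE, adjusted p = 0.0198), Bcl2a1a (8.17 ± 1.59, 0.0266) and Rnf128 (5.50 ± 0.70, 0.00267). It was below 0 for Selp (−2.09 ± 0.35, adjusted p = 0.0141), Flt3 (−2.35 ± 0.35, 0.00798) and Dntt (−3.50 ± 0.67, 0.0266). The 6 kept their sign in 19 alternatives and passed in 15 (Treml4), 13 (Bcl2a1a), 18 (Rnf128), 15 (Selp), 17 (Flt3) and 12 (Dntt) of them. Only mutant libraries were left out in turn, so the wild-type part of each difference was not checked in that way. With the immunoglobulin share as covariate 0 of the 6 passed (adjusted p 0.245 to 0.53). That covariate cannot be well separated from the wild-type response, because the share did not overlap between treatments in wild type.

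The immunoglobulin share and the levels of named genes, 38 sets of values, were examined in the same 5 mutant PBS libraries. In 12 of the 38, 1 library lay far from the other 4 by Dixon's criterion (gap over range above 0.71). The criterion's rate of about 1 in 20 is for independent sets of normal values. These sets share their libraries and their genes can vary together, so the count cannot be set against that rate. In 10 of the 12 the library was mutant PBS replicate 3, which also had the largest immunoglobulin share. It was high for Ly6a (3510 CPM beside a group median of 917), Nmur1 (1.14), Prss34 (126), Retnlg (240), Ly6g (50.4), Ngp (4670), Chil3 (955), Wfdc21 (294) and Esam (79.4), and low for Flt3 (204 CPM). Mutant PBS replicate 4 was high for Etv4 (1.24 CPM) and low for Cd33 (24.3 CPM).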

How the results depend on the processing

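The numbers of genes called depended on the processing. The 138 rises and 224 falls became 80 and 130 with the 8 mutant libraries fitted alone, 438 and 449 with the way codes are written (with or without a leading zero) as covariate, 56 and 147 within 1 code prefix, 312 and 575 by DESeq2 and 706 and 850 by limma-voom with quality weights; limma-trend on TPM called 113 and 48. Rises were 38.1% of the calls, 49.4% with the code covariate and 27.6% within the prefix. Leaving out 1 library gave 53 to 135 rises and 103 to 270 falls. The replicate numbers are shared by the groups. Same-numbered mutant PBS and mutant 5-FU libraries did not deviate together (r = 0.0954, −0.0146 and −0.164), so the numbers were not taken as pairs. These r left out the wild-type libraries, which the fit included. The immunoglobulin shares of PBS replicates 1 to 5 had the same order in both genotypes. They were 31.12, 36.04, 44.24, 25.24 and 6.373% in wild type. In the mutant they were 28.94, 34.37, 50.17, 12.18 and 3.668%. With a replicate block 531 genes rose and 483 fell (52.4% rises). Why the counts moved was not tested. All 60 called genes named by rule kept their direction in every alternative that tested them. The alternatives reuse the libraries that gave the calls, so a kept direction is a weak check. Of the 60, 31 passed in all 8 fits without a library, 40 within the prefix, 60 with the immunoglobulin share as covariate and 17 in all 20 alternatives. Limma-trend on TPM ended 28 of these calls, among them Esam, Gch1, Cd33, Satb1, Lck, H2-Ob, Cd27, Epor and Tgfbr3. Fits without a filter on low counts ended 9 and the replicate block 2. The 33 named genes that had not passed in the main fit gave 656 results in the alternatives, of which 69 passed. Lat and Tlr7 passed in 8 of 20 alternatives each, Gadd45a in 7, Hoxa9 in 5 and Gata2 in 3. Of genes that had not passed, Kit turned positive with the code covariate (0.23), within the prefix (0.16), with a replicate block (0.26) and on TPM (0.10); Ly6a with the immunoglobulin covariate (0.19) and on TPM (0.33); and Atf4 on TPM (0.12). The cause was not tested. Depth limits genes near 0: the floor of 3 counts was 0.09112 to 0.2642 CPM in the mutant libraries.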
